A study of Rattus norvegicus with 9 samples.

Results

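The 10 genes described here, which encode heat shock proteins and other protein-folding chaperones, were followed through 9 kidney RNA libraries. They were chosen by Ensembl identifier, and 10 of 10 were present among the 17862 features listed for every library. They are Hspa1a (ENSMUSG00000091971), Hspa1b (ENSMUSG00000090877), Hsp90aa1 (ENSMUSG00000021270), Hsp90ab1 (ENSMUSG00000023944), Dnajb1 (ENSMUSG00000005483), Hspa8 (ENSMUSG00000015656), Hspb1 (ENSMUSG00000004951), Hsph1 (ENSMUSG00000029657), Hspa5 (ENSMUSG00000026864) and Hspd1 (ENSMUSG00000025980). The libraries form 3 groups of 3, all at 6 weeks of age: kidney of normal animals (WT), of hypertensive animals (Model), and of hypertensive animals that received QDG, which stands for Qingda granule, a Chinese herbal preparation. Ribosomal RNA was removed before library construction, and no poly(A) selection is described. The sources used here state neither the strains nor the origin of the hypertension, nor how much granule was given, nor whether each library represents its own animal. The p-values therefore reflect only the scatter among these libraries, part of which may be technical, and an effect of hypertension cannot be told apart from anything else that separates WT from Model.

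The labels name the brown rat, whereas the identifiers are those of mouse genes. The identifiers alone do not show which species' RNA was read. The deposited files pair no other identifier with a gene name, so the kidney marker genes and the wider chaperone lists that had been drawn up by symbol matched 0 identifiers, and the tissue label was not checked against markers. Values were taken to be FPKM, that is reads or fragments per kilobase of gene and per unit of a library total. They are scaled to length, but levels of different genes also depend on how fully reads were assigned to each, which was not checked. Between 26.8 M and 29.4 M recovered reads or fragments lay in the listed features of a library. The least covered value of the 10 genes rested on 263 recovered reads (Hspa1a in QDG 3, the library of the QDG group with replicate number 3) and the best covered on 84722 (Hspa8 in WT 1).

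Heat shock proteins bind unfolded or partly folded proteins and keep them from aggregating. In the cytosol the HSP70 proteins (Hspa8, which is made constitutively, and the stress-inducible pair Hspa1a and Hspa1b) pass through cycles of ATP hydrolysis that J-domain proteins such as Dnajb1 start and nucleotide exchange factors such as Hsph1 end, and clients can then move on to the HSP90 proteins Hsp90aa1 and Hsp90ab1. Hspb1 is a small heat shock protein that holds unfolded proteins without using ATP. Hspa5, also called BiP, is the HSP70 of the endoplasmic reticulum, and Hspd1, or HSP60, is the chaperonin of mitochondria. The transcription factor HSF1 raises the cytosolic genes under heat and other proteotoxic stress by binding heat shock elements, which are inverted repeats of the unit GAA, while Hspa5 is raised in the unfolded protein response through the ER stress response element.

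RefSeq promoters of the rat assembly GRCr8 were found by symbol for 8 of the 10 genes, and those of 5 are shown. Hspa8, Hsph1, Hspd1 and Hspa5 carry a heat shock element of 3 units or the ER stress response element, and Dnajb1 is the gene that was called between Model and WT. Each line gives the 250 bases before the annotated gene start, 5′ to 3′ on the gene's own strand. The windows are chr8:50080264-50080513 (plus strand) for Hspa8, chr12:10427118-10427367 (plus strand) for Hsph1, chr9:64084038-64084287 (minus strand) for Hspd1, chr19:41431142-41431391 (minus strand) for Dnajb1 and chr3:38452766-38453015 (plus strand) for Hspa5. Capitals mark a heat shock element of 3 units (GAANNTTC followed by NNGAA, either strand) in Hspa8, Hsph1 and Hspd1, one of 2 units (GAANNTTC or TTCNNGAA) in Dnajb1, and the ER stress response element (CCAAT and CCACG with 9 bases of any kind between them, either strand) in Hspa5.
Hspa8: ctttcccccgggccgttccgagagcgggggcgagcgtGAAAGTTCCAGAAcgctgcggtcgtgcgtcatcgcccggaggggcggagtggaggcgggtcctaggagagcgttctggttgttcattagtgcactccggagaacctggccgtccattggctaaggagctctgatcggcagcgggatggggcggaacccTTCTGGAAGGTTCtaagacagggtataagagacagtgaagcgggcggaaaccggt
Hsph1: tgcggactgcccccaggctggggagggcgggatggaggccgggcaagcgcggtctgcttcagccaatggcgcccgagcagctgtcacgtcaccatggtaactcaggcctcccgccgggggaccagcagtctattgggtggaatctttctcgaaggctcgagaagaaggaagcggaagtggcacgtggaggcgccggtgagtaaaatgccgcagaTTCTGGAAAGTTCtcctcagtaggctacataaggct
Hspd1: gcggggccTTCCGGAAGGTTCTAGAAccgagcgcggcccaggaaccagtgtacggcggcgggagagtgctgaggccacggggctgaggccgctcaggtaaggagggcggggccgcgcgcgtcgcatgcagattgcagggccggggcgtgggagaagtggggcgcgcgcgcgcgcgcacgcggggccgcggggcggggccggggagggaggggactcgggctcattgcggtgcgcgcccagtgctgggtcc
Dnajb1: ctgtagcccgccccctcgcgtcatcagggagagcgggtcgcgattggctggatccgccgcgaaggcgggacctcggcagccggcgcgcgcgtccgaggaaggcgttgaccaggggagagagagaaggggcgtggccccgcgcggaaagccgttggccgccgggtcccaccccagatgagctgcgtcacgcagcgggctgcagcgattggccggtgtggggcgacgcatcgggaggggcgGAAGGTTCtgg
Hspa5: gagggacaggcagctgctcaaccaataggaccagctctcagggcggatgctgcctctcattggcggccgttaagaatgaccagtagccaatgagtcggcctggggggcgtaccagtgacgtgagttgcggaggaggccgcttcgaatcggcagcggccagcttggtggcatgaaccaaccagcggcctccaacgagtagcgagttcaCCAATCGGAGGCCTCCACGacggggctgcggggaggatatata

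The 3-unit element was found in 3 of the 8 windows (Hspa8, Hsph1 and Hspd1) and in 0.663% of the 33469 windows of the same length in the table. Hspa8 held 2 separate matches, at 213 to 201 and 55 to 43 bases before the start. The 2 matches in Hspd1 overlapped each other, and the match in Hsph1 lay 36 to 24 bases before the start. The 2-unit element, which every 3-unit match contains, was found in 5 of the 8 (those 3, Hspb1 and Dnajb1) and in 13.5% of all windows. The ER stress response element was found only in Hspa5 among the 8, at 43 to 25 bases before the start, and in 0.0657% of all windows. Hspa1a and Hsp90ab1 held no exact match in their windows. The match in Dnajb1 lay 11 to 4 bases before the start, so a 3-unit element running past the end of the window could not be found there. Only exact matches in 250 bases before 1 annotated start were sought, so a missing match does not show that a gene lacks the element. A match describes letters in the rat reference and is not evidence of binding in these kidneys.

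The 10 genes fell into an abundant and a scarcer set. Hspa8 stood highest, with a mean of 542 FPKM over the 9 libraries and rank 42 to 97 among all features of a library. Hsp90ab1 followed at 359 FPKM, Hspd1 at 226, Hspa5 at 129 and Hsp90aa1 at 97.7. The scarcer set comprised Hsph1 at 16.3 FPKM, Hspb1 at 15.8, Dnajb1 at 14.6, Hspa1b at 12.4 and Hspa1a at 5.96. Within the scarcer set the ranges of all 5 genes overlapped, that of Hspa1a only through Model 2, where it reached 20.5 FPKM. Hspa1b exceeded Hspa1a in every library, by a ratio of 1.77 to 2.86. The order of Hsph1, Hspb1, Dnajb1 and Hspa1b changed between libraries. The constitutive Hspa8 made up 34.1% (QDG 2) to 44.6% (WT 1) of the summed FPKM of the 10 genes.

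**Figure D1:**
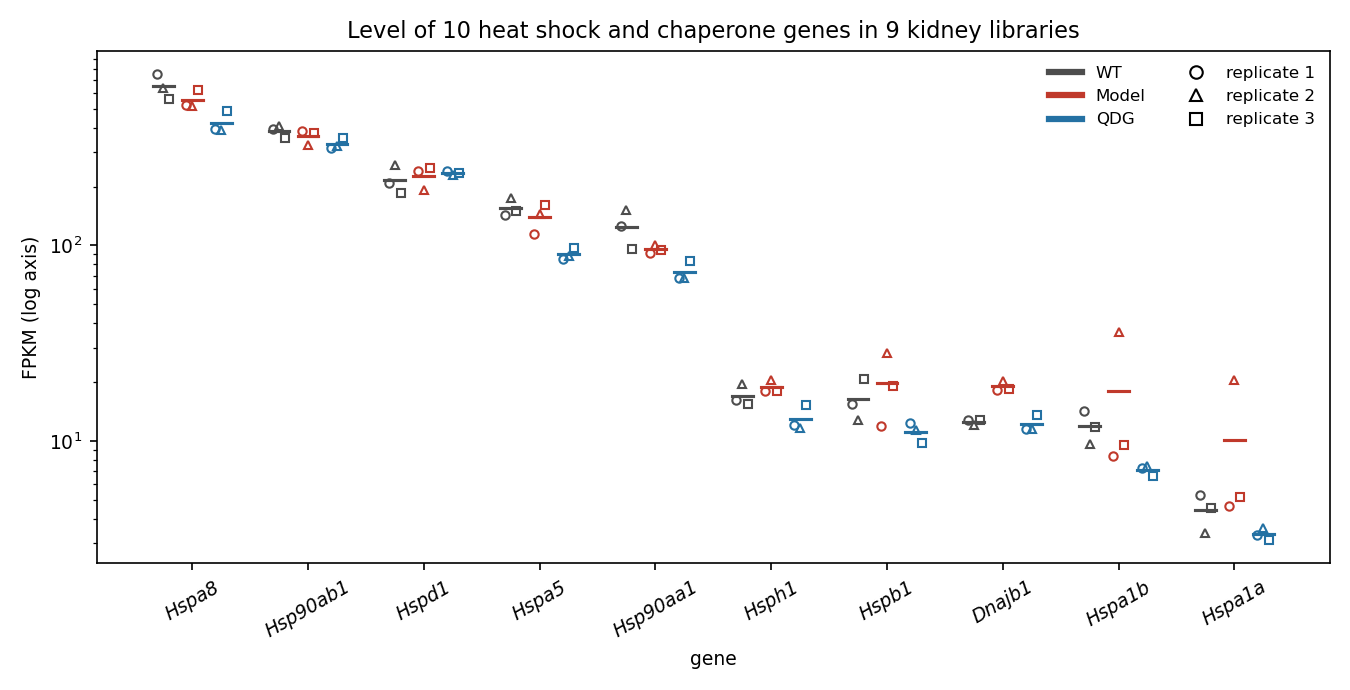
Level of each gene in FPKM (log axis), with 1 point per library, the marker shape giving the replicate number and the horizontal bar the group mean. Hspa8 lies highest with a mean of 542 FPKM and Hspa1a lowest at 5.96, and Hspa1a and Hspa1b of Model 2 stand far above every other library.

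The comparison of Model with WT asks what differs in the hypertensive kidney, and among the 10 genes it showed a rise of the HSP40 co-chaperone Dnajb1. Tests were made with limma on log2(FPKM + 1) for the 12187 features whose mean reached 1 FPKM, in 1 model of all 9 libraries, and a feature is called higher or lower when its Benjamini-Hochberg adjusted p is under 0.05. Of the 10 genes, 1 was called higher and 0 lower in Model, where 7.9% of all tested features were called (6.01% higher and 1.9% lower), so the count is near the background. The median difference of the 10 genes was 0.11 on this log2 scale, against 0.02 for all tested features. It was 0.08 for features averaging 5 FPKM or above, a level that all 10 genes reached. In bulk tissue such as this, fewer cells of a type and less RNA per cell cannot be told apart.

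Dnajb1 stood at 12.8, 12.1 and 12.8 FPKM in WT 1 to 3, at 18.2, 20.3 and 18.5 in Model 1 to 3, and at 11.5, 11.6 and 13.6 in QDG 1 to 3. All Model libraries lay above all WT and QDG libraries, and the WT and QDG ranges overlapped. The WT mean was 12.6 ± 0.372 FPKM (SD, n = 3) and the Model mean rose 1.51-fold above it, to 19.0 ± 1.13. The difference was 0.56 ± 0.10 (SE) in log2(FPKM + 1) (limma adjusted p = 0.0162). This gene had a small spread within groups, with a residual SD of 0.09 against a median of 0.16 over all tested features. The call held in 17 of 18 alternative analyses, and was lost when only WT and Model were fitted (limma adjusted p = 0.0564).

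Hspa8, the constitutive HSP70 that Dnajb1 works with, had a lower mean in Model than in WT. Its values were 752, 637 and 562 FPKM in WT, 524, 517 and 620 in Model, and 394, 390.0 and 485 in QDG. The WT and Model ranges of FPKM overlapped. Within each group, Hspa8 followed the order of the summed FPKM of all features, which was 483698, 417162 and 370528 in WT 1 to 3. The difference of −0.23 in log2(FPKM + 1), with a 95% interval from −0.58 to 0.13, did not pass (limma adjusted p = 0.378). It was −0.26 with voom on total reads (limma adjusted p = 0.188), and −0.50 after quantile normalization, where it passed (limma adjusted p = 0.0369). Within a library, Hspa8 exceeded Dnajb1 in FPKM by a ratio of 44.0 to 58.8 in WT, 25.5 to 33.5 in Model and 33.7 to 35.6 in QDG. The WT ratios lay above all others, and the Model and QDG ratios did not overlap, although Model 3 at 33.5 and QDG 2 at 33.7 were nearly equal. These ratios do not depend on a scaling factor shared by all genes of a library, but quantile normalization or removal of a length trend can alter them. They were chosen after the values were seen and not tested (3 samples against 3 cannot reach an exact permutation p under 0.1).

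The inducible HSP70 genes were set apart by 1 library. Hspa1a stood at 5.30, 3.38 and 4.57 FPKM in WT, at 4.66, 20.5 and 5.18 in Model, and at 3.30, 3.58 and 3.13 in QDG. Hspa1b stood at 14.3, 9.68 and 11.8 FPKM in WT, at 8.35, 36.2 and 9.53 in Model, and at 7.29, 7.48 and 6.64 in QDG. Model 2 was 4.17 times the mean of Model 1 and Model 3 for Hspa1a and 4.05 times for Hspa1b. Hspb1 was also highest in Model 2, at 28.1 FPKM against 11.9 and 19.2 in Model 1 and 3, 15.5, 12.8 and 20.8 in WT, and 12.4, 11.4 and 9.76 in QDG. On the log2(FPKM + 1) scale these excesses in Model 2 exceeded those of 99.9% (Hspa1a), 99.9% (Hspa1b) and 98.6% (Hspb1) of all tested features. The other members were within 0.35 of the mean of Model 1 and Model 3 on that scale, with Dnajb1 and Hsph1 0.14 and 0.19 above it and Hspd1 at −0.35. What set Model 2 apart was not tested.

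Differences of these 3 genes between Model and WT rested on that library. With all libraries, the differences in log2(FPKM + 1) were 0.76 for Hspa1a, 0.27 for Hspa1b and 0.21 for Hspb1, and none passed (limma adjusted p = 0.252, 0.709 and 0.639). Without Model 2 they were 0.14, −0.37 and −0.08, so Hspa1b and Hspb1 changed sign, and again none passed (limma adjusted p = 0.573, 0.154 and 0.849). With all libraries the 95% intervals ran from −0.15 to 1.68 for Hspa1a and from −0.66 to 1.20 for Hspa1b.

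The balance between the inducible genes differed by group in a way that Model 2 shared. Hspa1b exceeded Hspa1a in FPKM by a ratio of 2.70, 2.86 and 2.57 in WT, 1.79, 1.77 and 1.84 in Model, and 2.21, 2.09 and 2.12 in QDG. The 3 groups did not overlap, and Model 2, despite its high levels, lay beside the other Model libraries. The coding sequences of Hspa1a and Hspa1b are nearly identical, so how the authors' counting divided shared reads between them bears on each level and on this ratio, which was chosen after the values were seen and not tested. The inducible pair held 1.97% to 2.82% of the FPKM of the cytosolic HSP70 genes Hspa1a, Hspa1b and Hspa8 in the 8 other libraries and 9.89% in Model 2.

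**Figure D2:**
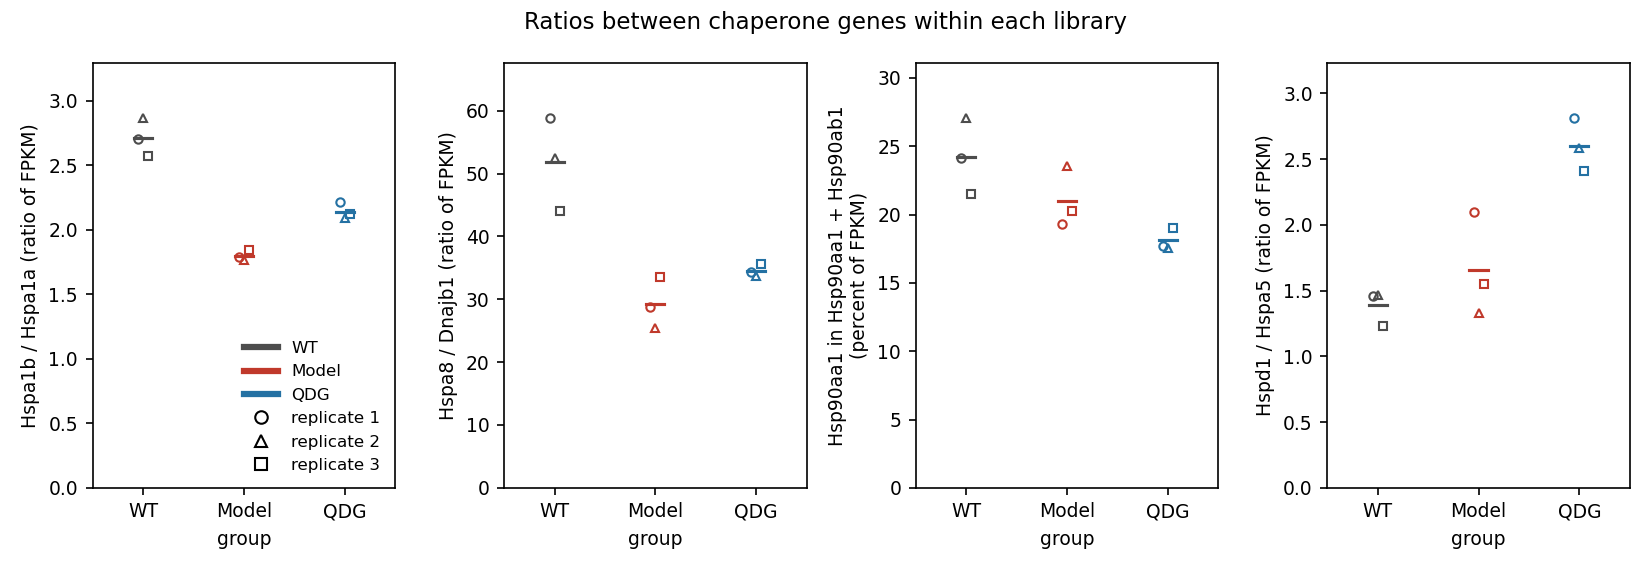
Ratios of FPKM between chaperone genes within each library by group, on axes that start at 0, with 1 point per library and a bar at the group mean. Hspa1b over Hspa1a separates the 3 groups (2.57 to 2.86 in WT, 1.77 to 1.84 in Model, 2.09 to 2.21 in QDG), and Hspd1 over Hspa5 is highest in QDG.

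Outside the 10 genes, the features whose log2(FPKM + 1) followed Hspa1a most closely over the 9 libraries were ENSMUSG00000006218 (Pearson's r = 0.99) and ENSMUSG00000026628 (r = 0.98), out of 12177. Both peaked in Model 2, at 7.98 FPKM against 1.77 to 2.78 in the other libraries for the former and 9.49 against 0.508 to 1.35 for the latter. Both correlations therefore rest on Model 2.

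None of the remaining genes was called between Model and WT. Hsp90aa1 had 126, 151 and 96.4 FPKM in WT and 91.8, 100.4 and 94.7 in Model, a difference of −0.35 in log2(FPKM + 1) with a 95% interval from −0.71 to 0.01 (limma adjusted p = 0.189). It passed when WT 3, the lowest WT library, was left out (difference −0.52, limma adjusted p = 0.0417). The difference of Hsp90aa1 was −0.39 with voom on total reads and −0.58 after quantile normalization. Neither passed (limma adjusted p = 0.116 and 0.0673). Hsp90ab1, Hsph1, Hspa5 and Hspd1 had differences of −0.09, 0.14, −0.16 and 0.07, and all their 95% intervals lay between −0.49 and 0.43.

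The comparison of QDG with Model asks which genes responded to the granule in hypertensive kidney, and 9 of the 10 genes had lower means of log2(FPKM + 1) in QDG, as did 53.5% of all tested features. None passed the adjusted threshold (0 of 10 genes and 0.0% of tested features; limma on FPKM and on recovered reads with voom). At an unadjusted p under 0.05, 7 of the 10 were lower and 0 higher in limma, where 9.64% of all tested features were lower and 4.27% higher. That count moved with single libraries. Leaving out WT 1, WT 2 or WT 3 kept it at 7 (9.97%, 10.9% and 11.3% of tested features lower). Leaving out Model 1 gave 6 (9.44%). It was 5 without Model 2 (9.25%) and 5 without Model 3 (5.14%). Without QDG 1 it was 4 (9.57%), without QDG 2 it was 5 (4.77%) and without QDG 3 it was 5 (4.57%). It was also 5 with the replicate number as a block (8.30%) and 5 after quantile normalization (6.20%). With the length trend removed it was 6 (5.43%), as with voom on total reads (6.97%) and with QDG and Model alone (12.6%). A pseudocount of 0.1 gave 8 (9.58%), and so did a stricter filter that kept features averaging 5 FPKM or above (13.9%). All 3 QDG libraries lay below all 3 Model libraries for 7 of the 10 genes, against 16.3% of tested features. The 10 genes had a median difference of −0.55 in log2(FPKM + 1), against −0.02 for all tested features. These backgrounds include features scarcer than any of the 10 genes, whose lowest mean was 5.96 FPKM. Under the stricter filter, 63.0% of features were lower in QDG and their median difference was −0.07. The 10 genes kept 9 lower means and a median of −0.55 there. Because several of the genes varied together over the libraries, the 10 are not independent observations.

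Within the cytosolic HSP70 system, Dnajb1 was 35.7% lower in the QDG mean than in the Model mean, with a difference of −0.60 in log2(FPKM + 1), an SE of 0.10 and an unadjusted p of 0.000113 in limma (adjusted p = 0.165, and 0.104 to 0.578 over the alternatives). The QDG mean of 12.2 ± 1.21 FPKM was close to the WT mean of 12.6, and the difference of QDG from WT was −0.04 (95% interval −0.26 to 0.18). Both comparisons with Model use the same Model libraries, so they are not independent of each other. Hsph1, the HSP110 exchange factor, had 16.2, 19.5 and 15.5 FPKM in WT, 17.9, 20.6 and 18.0 in Model, and 12.1, 11.7 and 15.3 in QDG. Its QDG libraries lay below every Model and WT library, with a difference from Model of −0.51 ± 0.13 (SE) (limma adjusted p = 0.281, unadjusted p = 0.00297).

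Hspa8 also had all QDG libraries below all Model and WT libraries, with a mean of 423 ± 53.9 FPKM in QDG, 554 ± 57.5 in Model and 650.4 ± 95.4 in WT. The difference of QDG from Model was −0.39 ± 0.16 (SE) in log2(FPKM + 1) (limma adjusted p = 0.328). After quantile normalization it shrank to −0.15 (limma unadjusted p = 0.200). Hspa1a and Hspa1b had the most negative differences of the 10, at −1.07 and −0.92, with SEs of 0.41 and 0.42 (limma adjusted p = 0.316 and 0.363). Without Model 2 these were −0.45 and −0.29, and that of Hspb1 was −0.41 in place of −0.70, while all QDG libraries still lay below both remaining Model libraries for Hspa1a and Hspa1b. With the length trend removed, the difference of Hspb1 was −0.49. In the fit without Model 2, 10 of the 10 genes were lower in QDG and 5 of them at an unadjusted p under 0.05, against 9.25% of tested features.

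The chaperone of the endoplasmic reticulum showed a similar difference. Hspa5 stood at 142, 175 and 149.9 FPKM in WT, 115, 144 and 160.1 in Model, and 85.6, 88.5 and 97.4 in QDG. The QDG libraries lay below all others. The QDG mean was 35.2% below the Model mean, with a difference of −0.61 ± 0.15 (SE) in log2(FPKM + 1) (limma adjusted p = 0.279, unadjusted p = 0.00184). Among the HSP90 genes, Hsp90aa1 had 67.9, 68.3 and 83.5 FPKM in QDG, below every Model library (difference −0.39, limma adjusted p = 0.340), whereas the more abundant Hsp90ab1 had 315, 321 and 355 in QDG and 383, 327 and 373 in Model, with overlapping ranges (difference −0.13, 95% interval −0.41 to 0.16, limma adjusted p = 0.680). After quantile normalization the differences of Hspa5 and Hsp90aa1 shrank to −0.41 and −0.20, and the sign of Hsp90ab1 turned, to 0.11.

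For mitochondrial Hspd1, the mean log2(FPKM + 1) was not lower in QDG than in Model, but the difference did not pass the test in either direction. It stood at 208, 257 and 185 FPKM in WT, 241, 192 and 248 in Model, and 240.4, 229 and 235 in QDG. The groups overlapped, and the QDG libraries were the closest to each other (SD 5.90 FPKM, against 36.7 in WT and 30.6 in Model). The difference of QDG from Model was 0.06 in log2(FPKM + 1) with a 95% interval from −0.28 to 0.40 (limma adjusted p = 0.888), and it was −0.06 without Model 2. Within a library the ratio of Hspd1 to Hspa5 was 1.23 to 1.47 in WT, 1.33 to 2.10 in Model and 2.41 to 2.81 in QDG, where every QDG library exceeded every other library. This ratio was also chosen after the values were seen and was not tested.

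**Figure D3:**
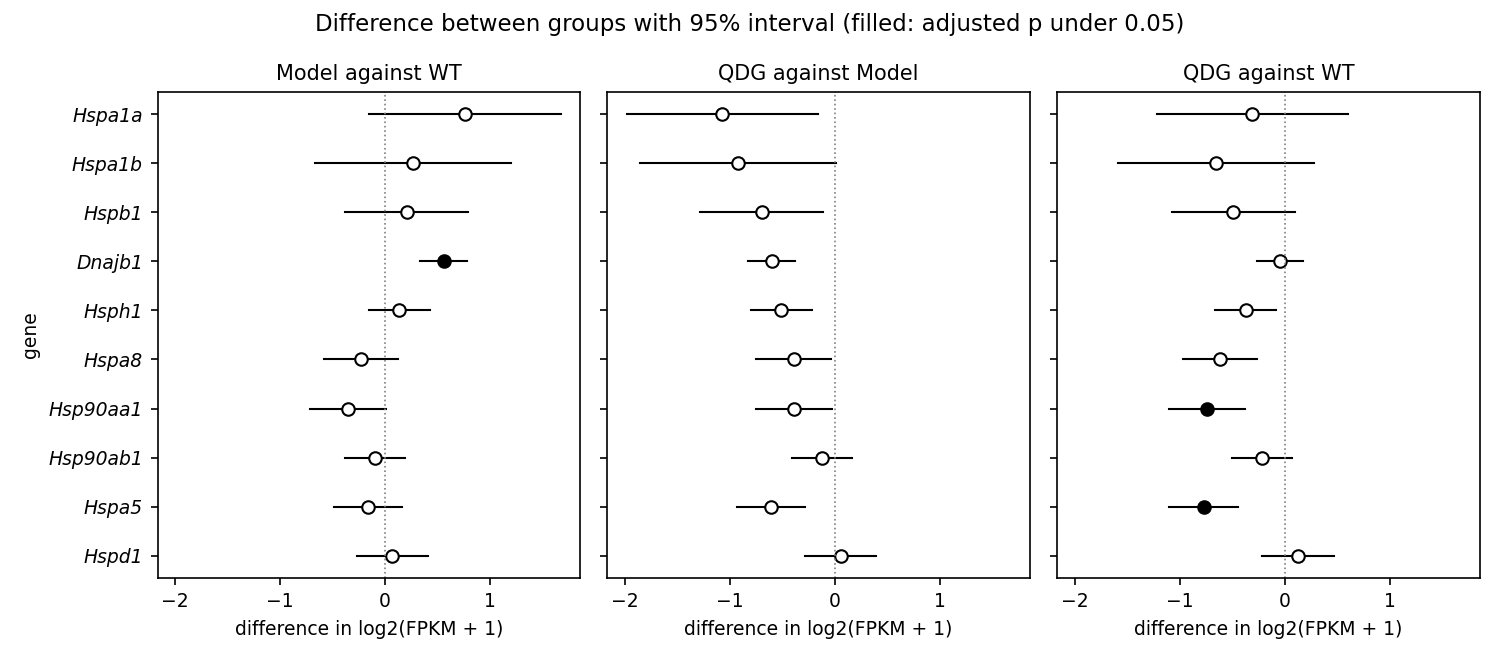
Difference in log2(FPKM + 1) between groups for each gene, with the 95% interval from limma, in 3 panels by comparison, and with filled points where the adjusted p was under 0.05. The filled points are Dnajb1 in Model against WT and Hsp90aa1 and Hspa5 in QDG against WT, and 9 of 10 points lie below 0 in QDG against Model.

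The comparison of QDG with WT asks what differed from the normal kidney under treatment, and here Hspa5 and Hsp90aa1 were lower in QDG. Of the 10 genes, 2 were called lower and 0 higher, against 0.837% and 1.63% of tested features. The QDG libraries lay below all WT libraries for 6 of the 10 genes, against 12.5% of tested features, and the median difference of the 10 was −0.43 in log2(FPKM + 1), against −0.0012 for all tested features. For features averaging 5 FPKM or above the median was 0.02, and 47.3% of them had lower means in QDG. As in the comparison with Model, 9 of 10 means were lower in QDG (50.1% of tested features), and Hspd1 had the 1 mean that was not. The 2 comparisons share the QDG libraries, so they are not independent of each other.

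Hspa5 averaged 156 ± 16.9 FPKM (SD, n = 3) in WT and fell to 90.5 ± 6.19 in QDG, a difference of −0.77 ± 0.15 (SE) in log2(FPKM + 1) (limma adjusted p = 0.0291). Hsp90aa1 fell from 124 ± 27.3 FPKM to 73.3 ± 8.87, a difference of −0.74 ± 0.16 (SE) (limma adjusted p = 0.0458). Hspa5 kept its call in 13 of 18 alternatives and lost it without WT 1, WT 2, QDG 1, QDG 2 or QDG 3 (limma adjusted p = 0.0642, 0.0616, 0.122, 0.121 and 0.0767). Hsp90aa1 kept its call in 8 of 18, losing it with the same libraries left out (limma adjusted p = 0.133, 0.0852, 0.178, 0.173 and 0.0848) and without Model 1 or Model 3 (0.0636 and 0.0528), with a replicate block (0.0889), with no filter on low values (0.0597) and with WT and QDG alone (0.0595).

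Hspa8 came close to the threshold in this comparison. Its QDG mean was 35.0% below the WT mean, with a difference of −0.62 ± 0.16 (SE) in log2(FPKM + 1) (limma adjusted p = 0.0688), and it passed in 5 of 18 alternatives, among them voom on recovered reads under both scalings (limma adjusted p = 0.0474 and 0.0255). Hsph1 and Hspb1 had differences of −0.37 and −0.49 that did not pass (limma adjusted p = 0.150 and 0.314), although all QDG libraries lay below all WT libraries for both. Hspa1b had a difference of −0.65 (limma adjusted p = 0.394). It passed in the fit without Model 2 (limma adjusted p = 0.0314) and in the fit of WT and QDG alone (0.0430), neither of which includes Model 2. Hsp90aa1 held 21.5% to 27.0% of the summed FPKM of Hsp90aa1 and Hsp90ab1 in WT, 19.3% to 23.5% in Model and 17.5% to 19.0% in QDG, so that the QDG shares lay below all others.

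**Figure D4:**
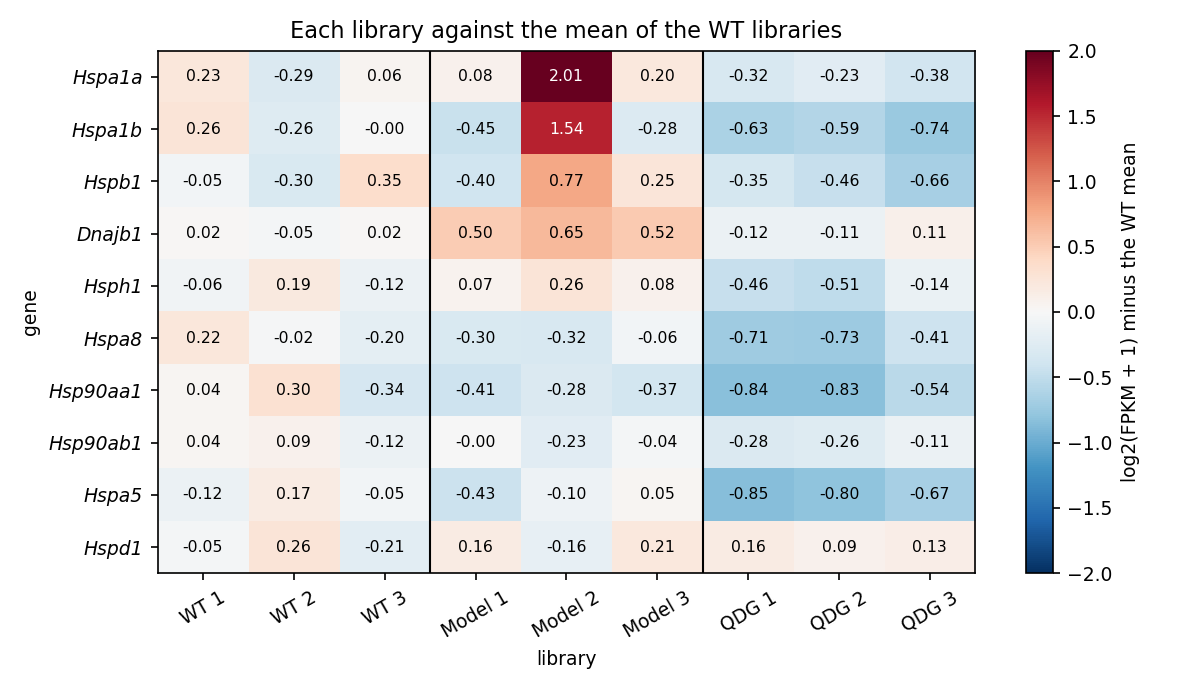
Difference of each library from the WT mean in log2(FPKM + 1) for the 10 genes (rows) and 9 libraries (columns), red for higher and blue for lower, with vertical lines between the groups. Model 2 stands out for Hspa1a at 2.01 and Hspa1b at 1.54, Dnajb1 is raised in all Model libraries, and the QDG columns are below 0 for 8 genes in all 3 libraries.

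The genes differed in how closely they varied together over the 9 libraries. Of the 45 pairs, 34 had a positive Pearson's r of log2(FPKM + 1), the median was 0.38 and 9 pairs exceeded 0.8. One cluster held Hspa1a, Hspa1b and Hspb1 (r = 0.95 between Hspa1a and Hspa1b, 0.83 between Hspa1a and Hspb1, and 0.86 between Hspa1b and Hspb1), which share the high Model 2 library. Another held Hspa8 and Hsp90aa1 (r = 0.88), Hspa8 and Hspa5 (0.85), and Hspa8 and Hsp90ab1 (0.85). Once each group's mean was taken off, r was 0.54 for Hspa8 with Hsp90aa1, 0.33 with Hspa5 and 0.67 with Hsp90ab1, whereas Hspa1a and Hspa1b stood at 0.998, and each of them at 0.78 with Hspb1. These values describe 9 libraries that differ by group and by scaling and carry no p.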

How the data were processed

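RNA of 9 kidney samples was sequenced, with 3 samples in each of the WT, Model and QDG groups, grouped by sample title. Each file that the authors deposited lists 1 value per feature with no unit named, and the deposited values were taken to be FPKM because they moved in steps of whole reads over gene length. Whole reads were recovered on that basis for 17861 of 17862 features (within 0.001 read or a relative 3e-08). The scaling totals implied by the steps, 26.2 M to 31.4 M, were smaller than the reads in the listed features in 4 of the 9 libraries, so they are not plain library totals. Per the submitters' processing notes limma was used. The aligner, read counter, build and gene annotation were not given in the sources used here. No listed value is 0.

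Tests used limma 3.58.1 in R 4.3.3 with an intensity trend on log2(FPKM + 1), features whose mean reached 1 FPKM (12187, among them all 10 chaperone genes) and 1 model of all 9 samples, two-sided, with Benjamini-Hochberg adjustment over all features tested. On this scale, changes of low genes come out smaller than they are. Chi-square per degree of freedom between libraries of a group was at least 11.9, so they differed by more than counting error. That value cannot tell whether the libraries came from separate animals. The test was run on simulated data with known changes, and part of the changed features was not called. A missing call therefore does not show that a gene is unchanged. The named genes are the 10 chosen, plus the 2 features most correlated with Hspa1a. The names of the 10 were supplied with their identifiers and do not stand in the files. The genes, lists and tests were chosen with earlier results of these data known. Alternatives were another pseudocount, other filters on low values, quantile normalization, removal of a length trend, voom on recovered reads, fits of 2 groups, a replicate block and leaving out each library.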

Additional observations from a re-analysis of the deposited data

How the results depend on the processing

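Of 540 values (10 genes, 3 comparisons and 18 alternatives), 507 kept their direction and their side of the threshold, 16 lost the call, 9 gained it and 8 changed sign. In Model against WT the log2 difference of Hspb1 was −0.025 with the length trend removed and −0.076 (without Model 2) to 0.51 (without Model 1) with 1 library left out. That of Hspd1 was −0.15 after quantile normalization, −0.039 with the length trend removed and −0.034 (without WT 3) to 0.20 (without WT 2) with 1 library left out, and that of Hspa1b ran from −0.37 (without Model 2) to 0.63 (without Model 1). In QDG against Model, Hsp90ab1 stood at 0.11 after quantile normalization, and Hspd1 ran from −0.059 (without Model 2) to 0.13 (without Model 3). None of the 8 values that changed sign was called in either analysis.

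The number of the 10 genes called in Model against WT was 1. It was 2 after quantile normalization, 0 with only 2 groups fitted, and 1 to 2 (without WT 3) over the omissions of 1 library. In QDG against Model it was 0 in the 18 alternatives. In QDG against WT it was 2, with 1 under no filter on low values and 0 to 3 (without Model 2 or WT 3) over the omissions. Over all features, Model against WT gave 963 calls, 144 in the fit of 2 groups, and from 195 (without Model 3) up to 1529 (without WT 3) over the omissions. The corresponding numbers for QDG against Model were 0, 1, and 0 to 3 (without Model 1). For QDG against WT they were 301, 486, and 39 (without QDG 2) to 775 (without WT 3), with 515 after quantile normalization and 526 with the length trend removed. Samples with the same number did not deviate together (correlations of −0.33 to 0.14 across features, while WT 2 correlated best with Model 1, at 0.43), so the numbers were not taken to pair the samples. With a replicate block, 533, 0 and 154 features and 1, 0 and 1 of the 10 genes were called in the 3 comparisons in the order above. The cause was not tested. The smallest read count behind a value was 263 (Hspa1a in QDG 3), where counting error alone is 6.17% and the coefficient of variation of the QDG libraries was 6.84%; for Hspa1a in Model it was 89.1%.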
